A study of Mus musculus with 8 samples.

Results

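Genes of Nodal signalling, FGF signalling and the early epiblast were examined in mouse primordial germ cells, from which sperm or eggs later form. The 8 genes were the ligands Nodal and Gdf3, the co-receptor Tdgf1, the inhibitors Lefty1 and Lefty2, the FGF ligands Fgf4 and Fgf5, and the transcription factor gene Otx2. They were taken by name from 21444 genes with at least 1 count. The transcript that stands for each gene was chosen by its summed count over all 8 libraries, the highest of the gene, without use of the groups. The genes themselves were proposed with results of these data known, so how many of them differ is a description. Only 5 of the 8 (Tdgf1, Lefty1, Lefty2, Gdf3 and Fgf5) had enough counts to be among the 10990 genes tested.

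RNA was sequenced on a SOLiD instrument from germ cells of embryos at E11.5, in 4 Control and 4 Prmt5 KO libraries. Both groups carried Blimp1Cre, a Cre recombinase active in germ cells and in other cells that express Blimp1, and the dPE_Oct4 GFP reporter by which the cells were sorted. Control embryos were Blimp1Cre;Prmt5flox/+, with 1 floxed copy of Prmt5, and knockout embryos were Blimp1Cre;Prmt5flox/flox, all on a mixed C57BL/6 and 129 background. Prmt5 encodes an enzyme that places symmetric dimethylation on arginines of histones and splicing proteins. Each library started from 50 pg of total RNA and was amplified with a protocol made for single cells. Whether replicates are separate embryos is not in the labels, so p-values measure how far these libraries vary among themselves, and part of that spread may be technical.

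Nodal is a secreted ligand of the TGF-beta family. With a co-receptor of the Tdgf1 family it acts through activin receptors, which phosphorylate Smad2 and Smad3, and these enter the nucleus with Smad4 and partners such as Foxh1. Lefty1 and Lefty2 are secreted antagonists that are themselves induced by the pathway, which gives a feedback loop. FGF ligands bind receptor tyrosine kinases and signal through RAS and ERK. In the epiblast Fgf4 is produced at the early stage, while Fgf5 and Otx2 mark the later, formative and primed stages. Germ cells arise from the epiblast and express again many of its pluripotency genes, and Nodal signalling is known in germ cells mainly from the fetal testis.

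Lefty1 and Lefty2 are neighbouring genes on chromosome 1 with closely related sequences, so it matters whether reads can tell them apart. Their coding sequences in the reference (GRCm38), each 1104 bases long, were identical at 91.8% of positions and differed at 90. The longest identical run was 140 bases, and 23.4% of the 35-base stretches of the Lefty1 transcript also occurred in Lefty2. The 60-base window with the most differences, coding bases 34 to 93 counted from the first base of the start codon, is shown 5′ to 3′ with the 18 differing bases in capitals.
Lefty1: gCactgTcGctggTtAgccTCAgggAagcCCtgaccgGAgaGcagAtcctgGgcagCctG
Lefty2: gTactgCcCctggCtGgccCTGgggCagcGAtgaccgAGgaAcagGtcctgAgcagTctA
The treatment of reads that match both genes, not given in the sources used here, decides what part of each count could belong to the other gene, and this was not tested.

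Promoters of 5 of the 8 genes were found in the RefSeq promoter table (GRCm38.p6): Tdgf1, Nodal, Fgf4, Fgf5 and Otx2. The 250 bases before the start of Fgf5 (chr5:98253934-98254183, plus strand) and Tdgf1 (chr9:110946159-110946408, minus strand) are shown because these were the tested members with the lowest fold changes in Prmt5 KO, and because they differ in their content of CpG, the dinucleotide at which DNA is methylated. Capitals mark CpG.
Fgf5: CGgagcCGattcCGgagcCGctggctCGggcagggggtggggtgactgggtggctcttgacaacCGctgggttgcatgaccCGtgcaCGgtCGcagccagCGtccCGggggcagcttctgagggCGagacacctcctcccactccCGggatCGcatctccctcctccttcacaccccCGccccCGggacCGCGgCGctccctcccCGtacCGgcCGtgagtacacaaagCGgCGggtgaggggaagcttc
Tdgf1: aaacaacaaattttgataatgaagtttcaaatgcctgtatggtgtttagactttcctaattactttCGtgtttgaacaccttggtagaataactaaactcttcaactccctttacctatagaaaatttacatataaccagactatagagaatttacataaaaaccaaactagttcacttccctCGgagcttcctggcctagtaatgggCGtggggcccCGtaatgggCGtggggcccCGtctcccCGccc
The Fgf5 window had 24 CpG and 70.8% GC, and 88.0% of 32851 promoters had fewer CpG. The Tdgf1 window had 7 CpG and 42.0% GC, with 53.7% of promoters below it and a median of 6 CpG over all promoters. Letters of the Foxh1 motif, AATCCACA, searched on both strands, were in none of the windows of the 5 genes and in 0.7% of all promoters. The SMAD-binding letters CAGAC were in the Tdgf1 window 1 time and in none of the others, against 42.2% of all promoters. The GC-box letters GGGCGG were found 1 time each in the Fgf5 and Tdgf1 windows and 2 times in that of Fgf4, against 32.7% of all promoters. DNA methylation was not measured in these libraries.

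Total gene counts ran from 1811428 to 6549504 per library, with Control 2 and Control 3 the shallowest, and 14400 to 17425 genes had a count. Prmt5 was at 88.9 to 171 CPM (counts relative to the scaled library total) in Control and 26.3 to 40.3 CPM in Prmt5 KO, with no overlap (log2 fold change -1.95, edgeR adjusted p = 0.0389), a call lost in 12 of 18 alternative fits. Over all 10990 genes, edgeR called 2 higher and 1 lower. Of 10 germ cell markers, all were detected in the 8 libraries, with a summed level of 2840 to 3370 CPM. Of 11 markers of somatic gonad and mesonephros, the summed level was 134 to 214 CPM in Control, 653 CPM in Prmt5 KO 1 and 170 to 213 CPM in the other Prmt5 KO libraries. The 6 tested markers of that list all lay above 0 (median log2 fold change 1.91), and edgeR called 0 (3 at an unadjusted p under 0.05). Outside Prmt5 KO 1 most of the sum was Mfge8, and Wt1 was at 7.40 CPM or more in every library, with 39.0 CPM in Prmt5 KO 1 and 18.1 CPM in Prmt5 KO 2. Pax2, another of these markers, was at 0 in 7 of the 8 libraries. Of 6 endothelial markers, the summed level overlapped, at 277 to 359 CPM in Control and 294 to 393 CPM in Prmt5 KO. Of the 3 tested, 1 lay above 0 and 2 below (median log2 fold change -0.03). The 1 above was Tek, the angiopoietin receptor gene, at 28.7, 4.44, 7.64 and 8.05 CPM in Control and at 71.9, 12.1, 53.4 and 70.7 CPM in Prmt5 KO. It was called by DESeq2 (adjusted p = 0.0430) and not by edgeR (adjusted p = 0.409), while Egfl7 was at -1.18 and Pecam1 at -0.03. The part of these markers in the results on the members was not tested. Prmt5 KO 1 and Prmt5 KO 4 stood somewhat apart, with a mean correlation of 0.864 and 0.850 in log2(CPM + 1) with the rest of their group, against 0.887 to 0.913 for the other 6 libraries. In this bulk design, fewer cells of a type and less RNA per cell cannot be told apart.

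Of the 5 tested members, 2 had a log2 fold change above 0 and 3 below, with a median of -0.02, beside 0.028 over all genes tested. In edgeR 0 of the 5 passed an adjusted p of 0.05, a threshold that 0.0273% of all tested genes passed, and limma voom also called 0. At an unadjusted p under 0.05 in edgeR there were 3 (Lefty1, Lefty2 and Fgf5), against 8.15% of all tested genes. Lefty1 was higher in every Prmt5 KO library than in every Control library, as were 2.61% of all tested genes. Fgf5 was lower in every Prmt5 KO library, as were 2.27% of all tested genes. DESeq2, a second count test, called Lefty1 higher and Fgf5 lower, and over all tested genes it called 0.564% higher and 0.409% lower. On counts simulated with 10990 genes for this comparison, DESeq2 called 29 of 10790 unchanged genes and edgeR called 2. Of 100 genes simulated with a 2-fold change edgeR found 19 and DESeq2 40, and of 100 with a 4-fold change edgeR found 62 and DESeq2 76. The 29 false calls of DESeq2, beside 40 and 76 true ones, were a larger share of its calls than the 0.05 its threshold sets. The DESeq2 calls of Lefty1 and Fgf5 carry this limit.

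**Figure D1:**
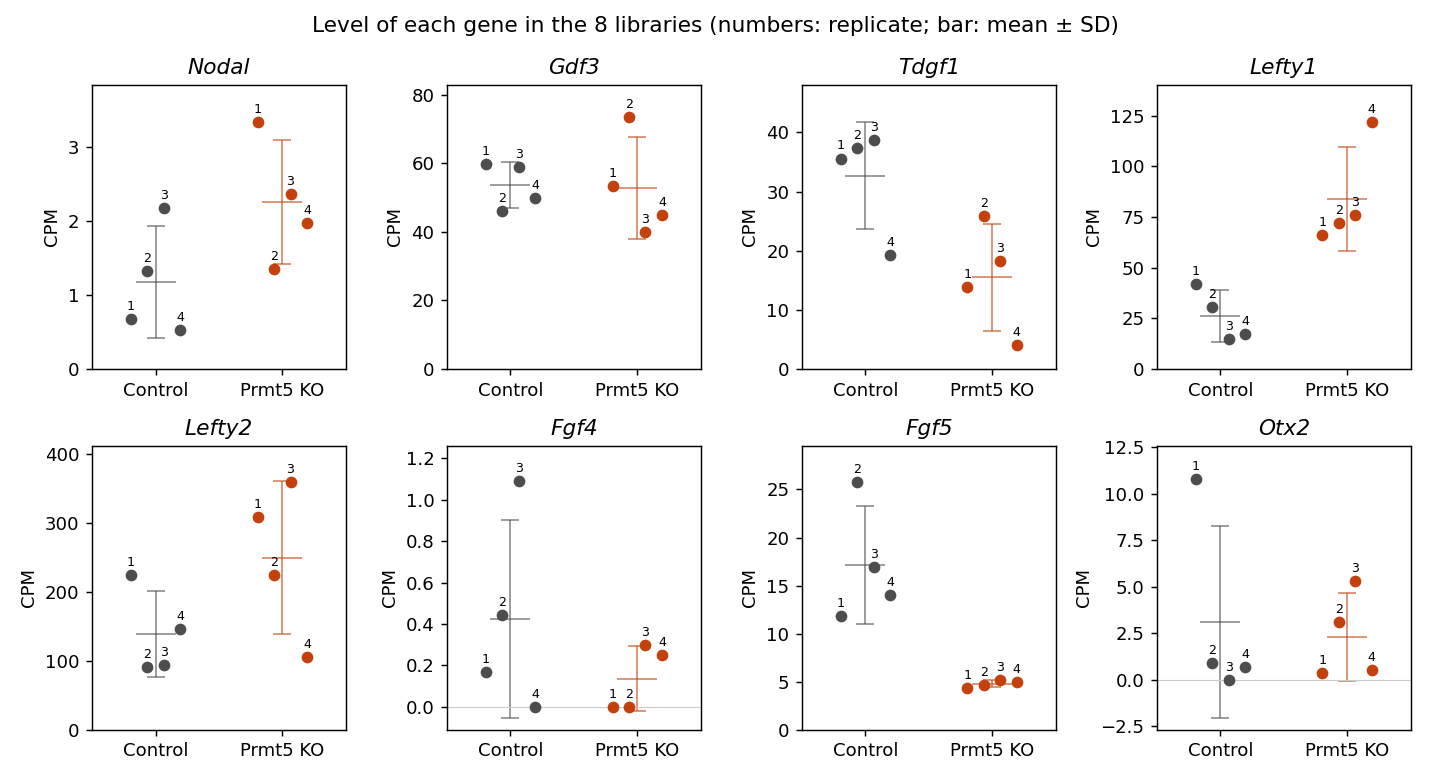
CPM of each of the 8 genes (y axes, linear) in Control and Prmt5 KO; each point is a library with its replicate number, and the bar gives the group mean with its SD (n = 4). Lefty1 lies between 14.7 and 41.9 CPM in Control and between 66.0 and 122 CPM in Prmt5 KO, and Fgf5 between 11.8 and 25.8 CPM and between 4.36 and 5.18 CPM.

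The ligand Nodal was scarce in both groups. Nodal (ENSMUSG00000037171, chromosome 10, 61417972 to 61425338, plus strand, 3 exons) had 4, 3, 4 and 3 counts in Control 1 to 4, against 20, 7, 16 and 8 in Prmt5 KO 1 to 4. In CPM this is 0.672, 1.33, 2.18 and 0.525 in Control and 3.35, 1.35, 2.37 and 1.98 in Prmt5 KO. Control 3 lay above Prmt5 KO 2 and 4, so the groups overlapped. The pooled counts, 14 against 51, gave a ratio of 2.61 relative to library size, with a 95% interval of 1.43 to 5.12 that covers counting error only. The gene did not pass the filter on low counts, and with no filter its log2 fold change was 1.06 (standard error 1.04, edgeR adjusted p = 0.686).

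Gdf3, a related ligand of pluripotent cells, had similar group means. Gdf3 (ENSMUSG00000030117, chromosome 6, 122605403 to 122610087, minus strand, 2 exons) was at 59.8, 46.2, 58.9 and 49.9 CPM in Control and at 53.3, 73.6, 39.9 and 44.9 CPM in Prmt5 KO. The Control range lay within the Prmt5 KO range, in which Prmt5 KO 2 was highest. The means were 53.7 ± 6.74 and 52.9 ± 14.8 CPM (SD, n = 4 each), with a log2 fold change of -0.02 and a standard error of 0.280 (edgeR adjusted p = 0.992). Its sign turned with the libraries used, between -0.22 and 0.10 with 1 left out at a time.

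Tdgf1, which encodes the membrane-anchored co-receptor Cripto, was lower on average in Prmt5 KO, with overlapping groups. Tdgf1 (ENSMUSG00000032494, chromosome 9, 110939603 to 110946158, minus strand, 6 exons) was at 35.6, 37.3, 38.7 and 19.2 CPM in Control 1 to 4, against 13.9, 25.8, 18.2 and 3.97 CPM in Prmt5 KO 1 to 4. Control 4 was low among the Control libraries and lay below Prmt5 KO 2, and Prmt5 KO 4 was the lowest of all. The mean of Control was 32.7 ± 9.08 CPM and that of Prmt5 KO 15.5 ± 9.11 CPM (SD, n = 4 each). The log2 fold change of -1.07 (standard error 0.514) did not pass in edgeR (adjusted p = 0.624) or in DESeq2 (adjusted p = 0.409). Without Prmt5 KO 1 and 4 it was -0.56, without Prmt5 KO 1 alone -1.02 and without Prmt5 KO 4 alone -0.75. A processed pseudogene, Tdgf1-ps1, shares 16.3% of the 35-base stretches of Tdgf1, and it had 0 to 4 counts per library.

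Lefty1 was the tested member with the highest fold change. Lefty1 (ENSMUSG00000038793, chromosome 1, 180935022 to 180938400, plus strand, 4 exons) was at 41.9, 30.6, 14.7 and 17.0 CPM in Control 1 to 4, from 249, 69, 27 and 97 counts. In Prmt5 KO 1 to 4 it was at 66.0, 72.2, 76.0 and 122 CPM, from 394, 375, 514 and 492 counts. All 4 Prmt5 KO libraries lay above all 4 Control libraries, with Prmt5 KO 4 the highest. The mean of Control was 26.1 ± 12.7 CPM and that of Prmt5 KO 84.1 ± 25.6 CPM (SD, n = 4 each), a ratio of 3.23. The log2 fold change was 1.68 with a standard error of 0.369, and it did not pass over all genes in edgeR (adjusted p = 0.202, 27th by p of 10990). In DESeq2 Lefty1 rose (log2 fold change 1.68, adjusted p = 0.00207), and this call held on leaving out each of the 8 libraries (adjusted p from 0.000113 to 0.0228). Without Prmt5 KO 1, the library with the most somatic markers, the log2 fold change in edgeR was 1.78. The DESeq2 call did not hold without Control 2 and 3 (log2 fold change 1.52, DESeq2 adjusted p = 0.0908) or without Prmt5 KO 1 and 4 (1.49, DESeq2 adjusted p = 0.0548).

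Lefty2, the second antagonist, was the most abundant member. Lefty2 (ENSMUSG00000066652, chromosome 1, 180893108 to 180899103, plus strand, 4 exons) was at 225, 91.0, 94.4 and 146 CPM in Control 1 to 4, against 308, 224, 360 and 106 CPM in Prmt5 KO 1 to 4. Prmt5 KO 4, the highest library for Lefty1, was the lowest Prmt5 KO library for Lefty2 and lay below Control 1 and 4. The means were 139 ± 62.3 and 249 ± 111 CPM (SD, n = 4 each), with a log2 fold change of 0.84 and a standard error of 0.357 (edgeR adjusted p = 0.579, DESeq2 adjusted p = 0.284). The value ran from 0.43 without Control 2 and 3 to 1.17 without Control 1, and was 0.72 without Prmt5 KO 1.

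The balance of the antagonists was compared within each library. Per kilobase, Lefty1 stood at 28.5%, 51.4%, 23.8% and 17.8% of Lefty2 in Control 1 to 4, against 32.7%, 49.2%, 32.2% and 176% in Prmt5 KO 1 to 4. The groups overlapped, and Prmt5 KO 4 was the only library with more Lefty1 than Lefty2 (30.4% ± 14.7 against 72.6% ± 69.6, SD, n = 4 each; two-sided exact permutation p = 0.171, adjusted over 3 ratios p = 0.300). The annotated Lefty1 transcript with a retained intron held 18.3% ± 1.53 of the counts of the full transcript in Control, against 18.5% ± 1.76 in Prmt5 KO (SD, n = 4 each; exact permutation p = 0.914, adjusted p = 0.914). For Lefty2 these shares were 2.29% ± 0.926 and 2.96% ± 0.300 (SD, n = 4 each; exact permutation p = 0.200, adjusted p = 0.300). In Control 2 and 3 the transcript with a retained intron had only 2 and 4 counts for Lefty2, and 13 and 5 for Lefty1, so these Control shares are uncertain. The smallest p that 70 assignments of the libraries allow is 0.0286, and these 3 ratios were chosen after values were seen. Reads of exons that both transcripts share count for both.

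Of the FGF ligands, Fgf4, which signals in the early epiblast, was at the limit of detection. Fgf4 (ENSMUSG00000050917, chromosome 7, 144847367 to 144865243, plus strand) had 1, 1, 2 and 0 counts in Control and 0, 0, 2 and 1 in Prmt5 KO. Both groups were at or under 3 counts per library, a floor of 0.444 to 1.64 CPM at these depths, so no fold is given.

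Fgf5, the ligand of the formative and primed epiblast, was the tested member with the lowest fold change. Fgf5 (ENSMUSG00000029337, chromosome 5, 98254184 to 98277030, plus strand, 3 exons) was at 11.8, 25.8, 16.9 and 14.0 CPM in Control 1 to 4, from 70, 58, 31 and 80 counts. In Prmt5 KO 1 to 4 it was at 4.36, 4.62, 5.18 and 4.96 CPM, from 26, 24, 35 and 20 counts. All 4 Prmt5 KO libraries lay below all 4 Control libraries, and they lay close to each other, while Control 2 was the highest. At 20 to 35 counts, counting error alone is wider than the spread of the Prmt5 KO libraries, so their closeness is no measure of agreement. The means were 17.1 ± 6.14 and 4.78 ± 0.362 CPM (SD, n = 4 each), which is 3.58-fold lower in Prmt5 KO. The log2 fold change of -1.83 (standard error 0.537) did not pass over all genes in edgeR (adjusted p = 0.377, 130th by p). In DESeq2 Fgf5 fell (log2 fold change -1.82, adjusted p = 0.0409), but with 1 library left out at a time the call held in 1 of 8 fits (without Prmt5 KO 4, DESeq2 adjusted p = 0.0399; up to 0.286 in the other fits). Without Control 2 and 3, in which Fgf5 was highest, the log2 fold change was -1.42 (DESeq2 adjusted p = 0.627), and without Prmt5 KO 1 and 4 it was -1.80 (DESeq2 adjusted p = 0.127). Without Prmt5 KO 1 alone it was -1.78 in edgeR.

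Otx2, a homeobox factor that marks the formative epiblast and restricts entry into the germ cell fate, was carried by few libraries. Otx2 (ENSMUSG00000021848, chromosome 14, 48657677 to 48673819, minus strand, 4 exons) had 64, 2, 0 and 4 counts in Control 1 to 4, against 2, 16, 36 and 2 in Prmt5 KO 1 to 4. Control 1 stood at 10.8 CPM, and the other 3 Control libraries were at 0.888 CPM or less. The highest Prmt5 KO libraries were Prmt5 KO 3 at 5.33 CPM and Prmt5 KO 2 at 3.08 CPM. Otx2 did not pass the filter, and with no filter its log2 fold change was -0.48 (standard error 1.13, edgeR adjusted p = 0.930) and 2.03 without Control 1. Its exons overlap those of Otx2os1 on the opposite strand by 154 bases and those of Gm49154 by 168, with the strand of counting not given in the sources used here.

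**Figure D2:**
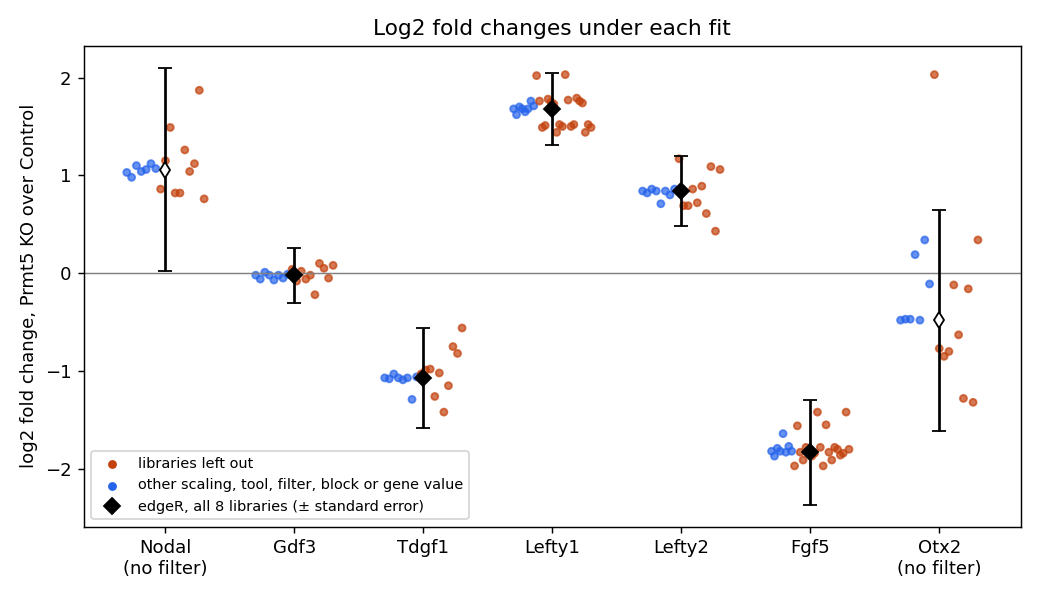
Log2 fold change of Prmt5 KO over Control (y axis) for 7 of the genes; diamonds are the edgeR fit on all 8 libraries with its standard error (open where no filter was applied), and dots are alternative fits, in colour by whether libraries were left out. Lefty1 lies above 0 and Fgf5 below 0 in each fit shown, while Gdf3 and Otx2 lie on both sides of 0.

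Levels between genes were compared per kilobase of transcript. Whether reads of these amplified libraries covered transcripts evenly was not tested, so the order of genes and the Lefty1 to Lefty2 percentages are approximate. In Control, Lefty2 was highest at 56.2 ± 25.2 CPM per kilobase, followed by Gdf3 at 25.3 ± 3.17, Tdgf1 at 16.9 ± 4.70 and Lefty1 at 16.1 ± 7.82 (SD, n = 4 each). The ranges of Lefty2 and Gdf3, and those of Gdf3 and Tdgf1, did not overlap, but those of Tdgf1 and Lefty1 did. Fgf5 followed at 6.84 ± 2.46 CPM per kilobase, and Otx2, Nodal and Fgf4 had means of 1.44, 0.562 and 0.141, with overlap between neighbours. In Prmt5 KO the order was Lefty2 at 101 ± 44.9, Lefty1 at 51.9 ± 15.8, Gdf3 at 24.9 ± 6.98, Tdgf1 at 8.01 ± 4.72 and Fgf5 at 1.91 ± 0.145 CPM per kilobase (SD, n = 4 each). Nodal and Otx2 each had a mean of 1.08 and Fgf4 of 0.0449. In Prmt5 KO the ranges of Lefty2 and Lefty1 overlapped, and so did those of Tdgf1 and Fgf5 and of Nodal and Otx2. The range of Lefty1 lay above that of Gdf3 with no overlap there, while in Control the mean of Lefty1 was below that of Gdf3 and their ranges overlapped. Lefty2 stood above 87.4% of tested genes in Control and 93.5% in Prmt5 KO, and Fgf5 above 40.8% and 14.2%.

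**Figure D3:**
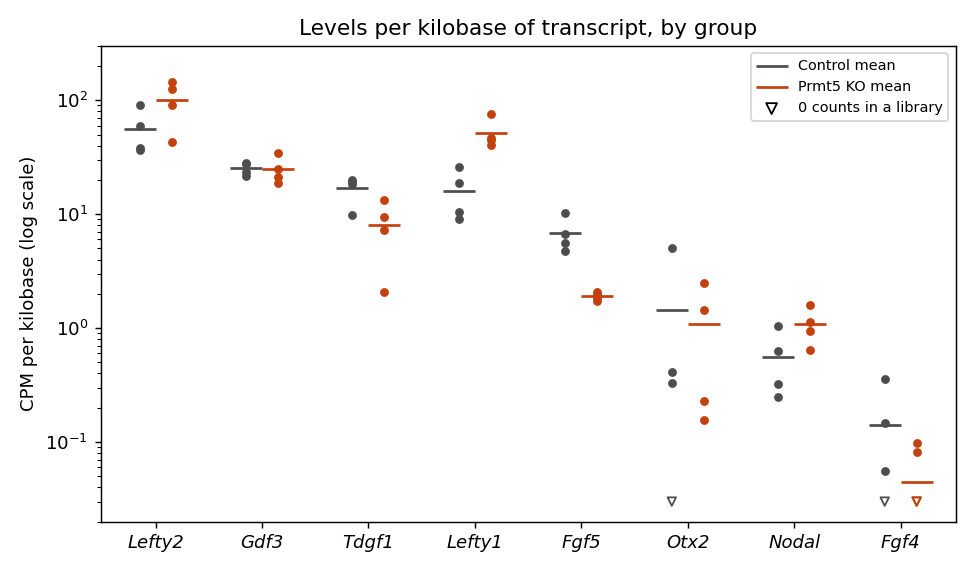
CPM per kilobase of transcript (y axis, log scale) of the 8 genes, in the order of their Control means; dots are libraries, horizontal bars are group means, and open triangles at the bottom mark libraries with 0 counts, which fall on each other where several are at 0. Lefty1 has a mean of 16.1 in Control and 51.9 in Prmt5 KO, and Fgf4 has the lowest means.

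Over 13 lists of pathway and epiblast genes, 102 of 153 different genes were tested, and edgeR and limma voom called 0 of them. At an unadjusted p under 0.05 in edgeR there were 12 (11.8%, beside 8.15% of all tested genes), and DESeq2 called 2, Lefty1 and Fgf5. The 102 genes include the 5 tested members, proposed with results known, and 3 of these are among the 12. Exons of Furin, Tgif2, Fgf2, Fgfr1, Fgfr3, Pou3f1 and Lef1 overlap genes on the opposite strand, so the values of these genes are uncertain. The genes of the Nodal branch are given by role. Of 7 listed ligands and convertases, 3 were tested, with a median log2 fold change of 0.00. They include Furin, a protease that activates Nodal (5.32 ± 2.39 and 5.40 ± 1.21 CPM, SD, n = 4 each). No count was found in any library for Gdf1 and Inhba, further ligands of the family. Exons of Gdf1 overlap those of Cers1 on the same strand by 1349 bases, so the absence of Gdf1 counts is uncertain. Of 6 listed receptors and co-receptors, 4 were tested with a median of 0.17, and Acvr1b, the type I receptor of Nodal, was at a log2 fold change of 0.46 (edgeR adjusted p = 0.843).

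All 5 listed SMADs and partners were tested, with 4 above 0 and a median log2 fold change of 0.25. Smad3, which carries the Nodal signal into the nucleus, was at 9.41, 22.2, 15.3 and 16.8 CPM in Control and at 33.9, 26.2, 32.5 and 59.5 CPM in Prmt5 KO. Each Prmt5 KO library lay above each Control library, in 1 of the 5 genes and in 2.61% of all tested genes. The log2 fold change of Smad3, 1.26 (standard error 0.411), did not pass (edgeR adjusted p = 0.429). Its partner Smad2 overlapped between the groups, at 71.1 ± 18.6 and 121 ± 41.4 CPM (SD, n = 4 each; log2 fold change 0.77, edgeR adjusted p = 0.491). Foxh1, the DNA-binding partner of these SMADs, was the most abundant of the list per kilobase, at 69.8 and 80.8 CPM per kilobase in Control and Prmt5 KO.

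Of 13 listed inhibitors of the branch, 11 were tested, with 8 above 0, 3 below and a median of 0.12, where 52.7% of all tested genes lay above 0. In 3 of the 11, Lefty1, Smurf2 and Tgif2, every Prmt5 KO library lay above every Control library, as in 2.61% of all tested genes. Smurf2, a ubiquitin ligase that targets SMADs, was at 29.1 ± 8.62 and 50.4 ± 5.52 CPM (SD, n = 4 each; log2 fold change 0.79, edgeR adjusted p = 0.544). The summed level of the list was 842 to 1030 CPM in Control and 1120 to 1210 CPM in Prmt5 KO. Without Lefty1 and Lefty2 the sums overlapped, at 715 to 822 CPM in Control against 775 to 890 CPM in Prmt5 KO. Of 7 listed mesendoderm targets of Nodal, 3 were tested, among them Foxa2 at -0.95 (edgeR adjusted p = 0.773), while T, the classical marker of the primitive streak, had no counts.

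The other FGF genes also gave no call. Of 22 listed ligands, 15 had a count and 3 were tested: Fgf5, Fgf2 at a log2 fold change of 0.67 and Fgf13 at -1.42 (edgeR adjusted p = 0.623). Fgf13, a member of the family that is not secreted, was at 6.52 ± 2.73 and 2.45 ± 1.22 CPM (SD, n = 4 each). Of 5 listed receptors, 4 were tested, 3 of them below 0, with a median of -0.85. Fgfrl1, a receptor without a kinase domain, was at 19.7, 3.55, 24.0 and 13.3 CPM in Control and 2.35, 6.17, 6.80 and 2.48 CPM in Prmt5 KO, with Control 2 inside the Prmt5 KO range (log2 fold change -1.75, edgeR adjusted p = 0.541). Fgfr3 was at -1.34 (edgeR adjusted p = 0.682), and Fgfr1, the most abundant receptor per kilobase, was at 25.5 and 19.7 CPM per kilobase.

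Of 18 listed genes of the RAS-ERK relay, 17 were tested, with 12 above 0 and a median of 0.12. Hras was at a log2 fold change of 1.37 (edgeR adjusted p = 0.540), with 162 CPM in Prmt5 KO 4 and 25.6 to 37.0 CPM in the other Prmt5 KO libraries. Mapk3, an ERK kinase gene and the most abundant of the list per kilobase, was at 0.01 (77.5 and 78.0 CPM per kilobase). Of 17 listed targets and feedback genes, 13 were tested, with 8 below 0 and a median of -0.12. Dusp4, a phosphatase that acts on ERK, was at 51.8, 52.4, 40.4 and 50.9 CPM in Control and 33.0, 19.7, 25.3 and 29.0 CPM in Prmt5 KO. Its groups did not overlap, with Prmt5 KO lower, in 1 of the 13 tested genes and in 2.27% of all tested genes. The log2 fold change of Dusp4, -0.87 (standard error 0.304), did not pass (edgeR adjusted p = 0.465). The transcription factor gene Etv4 was at -1.28 (edgeR adjusted p = 0.598), and Etv5, the most abundant of the list per kilobase, was at 475 ± 50.5 and 435 ± 26.1 CPM (SD, n = 4 each).

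Fgf5 was set beside other genes of its epiblast stage. Of 16 listed genes of the formative and primed epiblast, 10 were tested, with 7 above 0, 3 below and a median of 0.16. In edgeR and limma voom 0 were called, and DESeq2 called 1, Fgf5. Utf1, a chromatin factor that germ cells also express, was the most abundant per kilobase (413 and 521 CPM per kilobase) with a log2 fold change of 0.33. Pou3f1 was at 2.02 ± 0.845 and 2.24 ± 0.684 CPM, and Lef1 at 136 ± 14.5 and 153 ± 17.0 CPM (SD, n = 4 each), both named after their values were seen. Of 19 listed early epiblast genes, 17 were tested with 8 above 0, 9 below and a median of -0.02, and edgeR, limma voom and DESeq2 called 0. Klf4 was at -1.47 (edgeR adjusted p = 0.681), and Dppa3, the most abundant per kilobase and a germ cell marker, was at -0.16 (edgeR adjusted p = 0.835).

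**Figure D4:**
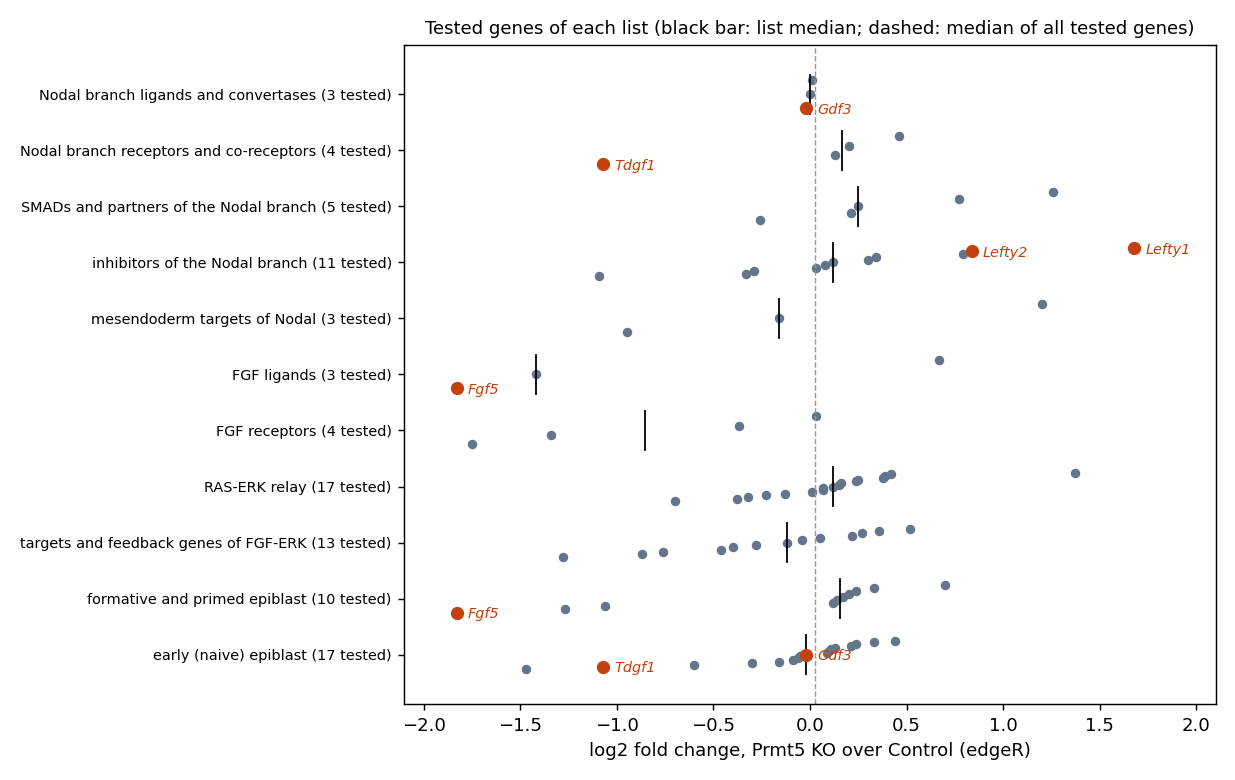
Log2 fold change of Prmt5 KO over Control in edgeR (x axis) for each tested gene of 11 lists; orange points are members named beside them, black bars are list medians, and the dashed line is the median of all tested genes, 0.028. None of the genes shown passed an adjusted p of 0.05. The FGF ligand and receptor lists have the lowest medians, -1.42 and -0.85. These rest on 3 of 22 listed ligands, Fgf5 among them, and on 4 of 5 receptors.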

How the data were processed

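The authors deposited, per the file headers and values, whole-number read counts per transcript, not normalized, in 8 libraries. Per the submitters' processing notes the builds are GRCm38 and mm10, with aligner, counter, annotation release and strand not given in the sources used here. Of 66262 transcript identifiers, 64258 (97.0%) matched GENCODE on GRCm38 and gave 21444 genes; unmatched ones held 1.75% to 1.90% of the counts and were left out. Reads of shared exons appear in several transcripts, so the gene value was the transcript with the highest total over all libraries. Replicates differed by more than sampling noise (chi-square per gene at least 7.66 in each pair), so no file was a copy of another; this does not show that they are separate samples.

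Low genes were removed with filterByExpr of edgeR (at least 10 counts, total at least 15), and the rest were scaled by TMM and tested with edgeR's quasi-likelihood test with robust estimation, Benjamini-Hochberg adjustment at 0.05 over 10990 genes. CPM use TMM-scaled sizes. Both count tests were tested on simulated data. The common biological coefficient of variation was 0.488, and a floor of 3 counts was 0.444 to 1.64 CPM.

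Members and lists were chosen with earlier results of these data known. Genes named were Prmt5, the members, from each list the called genes or the 2 with the smallest p, its most abundant gene per length, and for members of at least 10 CPM the 3 protein coding genes with the smallest root mean square difference of centred log2(CPM + 1); any other was chosen after its values were seen. Some genes that this rule names are not reported here. Alternatives covered scaling, tool, filter, robust estimation, replicate block, gene value and libraries left out. The tools were DESeq2 1.42.0, limma 3.58.1 and edgeR 4.0.16 in R 4.3.3, with scipy 1.17.1 and matplotlib 3.10.9.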

Additional observations from a re-analysis of the deposited data

Results flagged for a closer look

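The levels of the members other than Fgf4 and of the summed marker lists gave 22 sets of 4 replicates, and in each the most distant library was compared with the gap between the others. In 3 sets it lay far apart, where chance gives about 1 in 20, or 1.1. Tdgf1 was low in Control 4, at 19.2 CPM beside 35.6 to 38.7 CPM in the other Control libraries. Otx2 was high in Control 1, at 10.8 CPM beside at most 0.888 CPM. The summed markers of somatic gonad and mesonephros were high in Prmt5 KO 1, at 653 CPM beside 170 to 213 CPM in the other Prmt5 KO libraries. Acta2, a smooth muscle actin, was at 206 CPM in that library and at 2.70 to 7.09 CPM in the other 7, and Col1a1, a collagen, at 92.2 CPM and at 1.74 to 6.22 CPM. Without Prmt5 KO 1, the log2 fold change was 1.78 for Lefty1, 0.72 for Lefty2, -1.02 for Tdgf1 and -1.78 for Fgf5, each within its standard error of the value with all libraries. Without Prmt5 KO 4, which was not flagged, these values were 1.44, 1.09, -0.75 and -1.84.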

How the results depend on the processing

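Depth limits Nodal, Otx2 and Fgf4, and Control 2 and 3 hold few counts of Lefty1 (69 and 27). Fgf5 had 58 and 31 counts in Control 2 and 3, and 20 to 35 in the Prmt5 KO libraries. The 2 higher and 1 lower calls of edgeR among 10990 genes became 1 higher with upper quartile scaling or no robust estimation, 5 and 2 with no filter (21444 genes), 62 and 45 in DESeq2, 1 and 0 in limma voom, with the replicate block, with summed transcripts and without Prmt5 KO 1 and 4, and 0 and 0 without Control 2 and 3. Fits on summed transcripts or fewer libraries filtered genes anew. On leaving out each library there were 1 higher and 0 to 1 lower. Of genes on the pathway lists, DESeq2 called 1 higher (Lefty1, 1.68) and 1 lower (Fgf5, -1.82), edgeR 0 and 0. On leaving out libraries DESeq2 gave 1.44 to 2.03 for Lefty1, called in each of 8 fits, and -1.97 to -1.55 for Fgf5; these fits were chosen after seeing the data. In edgeR and limma voom, Lefty1, Lefty2, Tdgf1 and Fgf5 kept their direction and their side of the threshold under each alternative run. The sign turned for Gdf3 with no filter (0.01), without Prmt5 KO 1 and 4 (0.08) and on leaving out single libraries (-0.22 to 0.10). It turned for Otx2, with no filter, in limma voom (0.19), with the replicate block (0.34), without Prmt5 KO 1 and 4 (0.34) and without Control 1 (2.03, range -1.28 to 2.03). Summed transcripts count reads repeatedly and so inflate totals by construction: Tdgf1 was then at 14.6 CPM in Control, Lefty1 at 44.3 in Prmt5 KO, Lefty2 at 63.2 and 115, Nodal at 1.01 in Prmt5 KO, Gdf3 at 23.9 and 23.6, and Fgf5 at 7.61 and 2.13. Prmt5 itself lost its edgeR call in 12 of 18 alternatives, with a log2 fold change from -2.25 to -1.54 over all 18. The cause of these changes was not tested.

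The libraries were taken to share only a number: same-numbered libraries correlated at 0.002 to 0.069 in their deviations from group means, none over 0.1, although Control 1, 2 and 4 each matched the Prmt5 KO library of their own number best and Control 3 matched Prmt5 KO 2. With the replicate block, Lefty1 was at 1.76 (edgeR adjusted p = 0.310) and Fgf5 at -1.77 (edgeR adjusted p = 0.506), and no member's call changed.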

Other observations

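The genes whose levels ran most like each member were listed over the 8 libraries, among 8034 protein coding genes, as a description that rests on the same libraries and groups. For Tdgf1 they were Arhgap4, Cops7b and Sumf2, with root mean square differences of 0.27, 0.28 and 0.30 in centred log2(CPM + 1), beside a spread of Tdgf1 itself of 0.93. For Lefty1 they were Btbd8 (0.26), Mrpl9 (0.39) and Cstb (0.40), beside 0.99. For Lefty2 they were Tmem60 (0.30), Scai (0.32) and Ttc7b (0.33), beside 0.73. For Gdf3, whose own spread was 0.26, they were Bambi (0.13), a decoy receptor of TGF-beta signalling, Ubxn6 (0.13) and Srpk1 (0.14). For Fgf5 the nearest was Prmt5 (0.30), the gene removed in Prmt5 KO, then Lman2l (0.37), beside 0.85. Prmt5 and Fgf5 were both lower in every Prmt5 KO library, so this difference between groups enters their match.

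Some scarce genes outside the tested set are given as values, chosen after these were seen. Fos, an immediate early gene induced by ERK, was at 4.71, 1.33, 11.5 and 6.82 CPM in Control and at 0.503, 0.385, 0.444 and 0.744 CPM in Prmt5 KO, where each library lay at or under the floor of 3 counts. Mixl1, a homeobox target of Nodal, was at 6.22, 0.444, 1.09 and 2.80 CPM in Control and at 0.168, 0, 0.444 and 0 CPM in Prmt5 KO. Jun, another immediate early gene, was at 1.18, 1.78, 2.18 and 1.40 CPM in Control and at 1.51, 1.35, 3.85 and 24.6 CPM in Prmt5 KO, with Prmt5 KO 4 the highest. Exons of Jun overlap those of Junos on the opposite strand by 232 bases, so its values are uncertain. Of 9 listed immediate early genes, 5 were tested, with a median log2 fold change of -0.17, Egr1 at -0.46 and Ier2 at -0.17.

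Of 15 listed genes of the BMP branch, which specifies germ cells, 11 were tested and none was called by edgeR, with a median of -0.20. Id3, a target of BMP signalling, was at 116 ± 28.7 and 80.1 ± 18.4 CPM (SD, n = 4 each; log2 fold change -0.54, edgeR adjusted p = 0.599), and the receptor gene Acvr1 was at 0.95 (edgeR adjusted p = 0.647). Of 6 listed endothelial markers 3 were tested: Pecam1, which germ cells also express, at 81.7 and 79.8 CPM per kilobase, Egfl7 at a log2 fold change of -1.18 and Tek at 2.05 (edgeR adjusted p = 0.409, DESeq2 adjusted p = 0.0430), while Kdr had 0 counts in 7 of the 8 libraries. For blood and macrophages the tested marker, Csf1r, had levels of 7.14 and 5.00 CPM per kilobase, and Ptprc had 0 counts in 7 of the 8. Exons of Csf1r and Egfl7 overlap other genes on the opposite strand, so both are uncertain. Of the germ cell markers Dazl was at a log2 fold change of -0.61 (edgeR adjusted p = 0.760).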
